A study of Mus musculus with 12 samples.

Results

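The genes described here are the matrix metalloproteinases (MMP), the ADAMTS proteases and the tissue inhibitors of metalloproteinases (TIMP) of the mouse melanoma cell line B16F10, across 4 treatment groups. Every gene symbol in the count files that read Mmp, Adamts or Timp followed by its family number was taken, whatever its values, which gave 46 of 24421 genes: 23 MMP, 19 ADAMTS and 4 TIMP genes. B16F10 is an established pigmented line, and 3 cultures per group were sequenced: a control with the vehicle DMSO, DAC (5-aza-2'-deoxycytidine, a DNA methyltransferase inhibitor, 25 nM for 72 h), SFN (sulforaphane, an isothiocyanate from cruciferous vegetables, for 48 h) and DAC+SFN, in which DAC was given throughout and SFN was added for the last 48 h. Per the study's methods, DMSO was the solvent of DAC, while sulforaphane was dissolved in water. Whether the SFN cultures also received DMSO is not given in the sources used here, so SFN and control may also differ in DMSO. All groups were 1 cell line in culture, with no stroma or immune cells added. The labels write the SFN dose as 5 nM for the single treatment and as 5 µM for the combination treatment while the study's methods give it in µM for both, so whether the SFN dose differed between these groups is uncertain. Poly(A) RNA was sequenced, so the values are transcript levels and say nothing of enzyme activity, and fewer cells expressing a gene cannot be told apart from less RNA per cell.

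MMPs are zinc proteases that are made as inactive proenzymes and cleave collagens, gelatin and other matrix proteins once their prodomain is removed. ADAMTS proteases are secreted relatives that bind the matrix through thrombospondin repeats, and they include enzymes that cut proteoglycans, trim procollagens or cut von Willebrand factor. TIMPs bind the active site of these enzymes and block it. In melanoma the balance between the proteases and the TIMPs is studied for its part in invasion, and Mmp14 together with Timp2 activates the proenzyme of Mmp2 at the cell surface.

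The libraries held 15880957 to 27291436 counts, and the 46 genes took 0.088% to 0.134% of each. Levels are given below as counts per 1000000 counts of a library (CPM) after scaling by TMM, a method that corrects library sizes for composition. A gene was tested when it had at least 1 CPM, which stands for 15.7 to 26.7 counts, in at least 3 of the 12 libraries. It passed the test at a Benjamini-Hochberg adjusted p under 0.05 over all 11638 genes tested, and the share of all genes that passed is printed beside the counts. The melanocyte markers Mitf, Sox10, Pmel, Mlana, Tyr, Tyrp1 and Dct were all tested, and their summed level was between 21420 and 30150 CPM in every library. With DAC+SFN, 2 of the 7 fell compared to control, Pmel by 0.36 (adjusted p 0.0129) and Tyrp1 by 0.17 (adjusted p 0.0478) on the log2 scale, and their part in the results below was not tested.

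Of the 46 genes, 20 were tested: 6 MMP, 11 ADAMTS and 3 TIMP genes. A further 17 had counts but stayed below the filter, and 9 had no count in any library. The counts were concentrated in 3 genes. Adamts1, a proteoglycan-cleaving ADAMTS, held 27% of all counts of the 46 genes, Timp2 held 25.15% and Mmp14, a membrane-type MMP, held 22.17%. Per kilobase of exon, where genes can be compared with each other, the order in control was Timp2 with 63.8 CPM per kilobase, Adamts1 with 44.5 and Mmp14 with 42.4, followed by Timp1 with 11.2, Adamts13 with 10.99 and Adamts4 with 9.09. The gelatinase Mmp2, the target of the pair Mmp14 and Timp2, was at 0.943 CPM per kilobase in control.

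**Figure D1:**
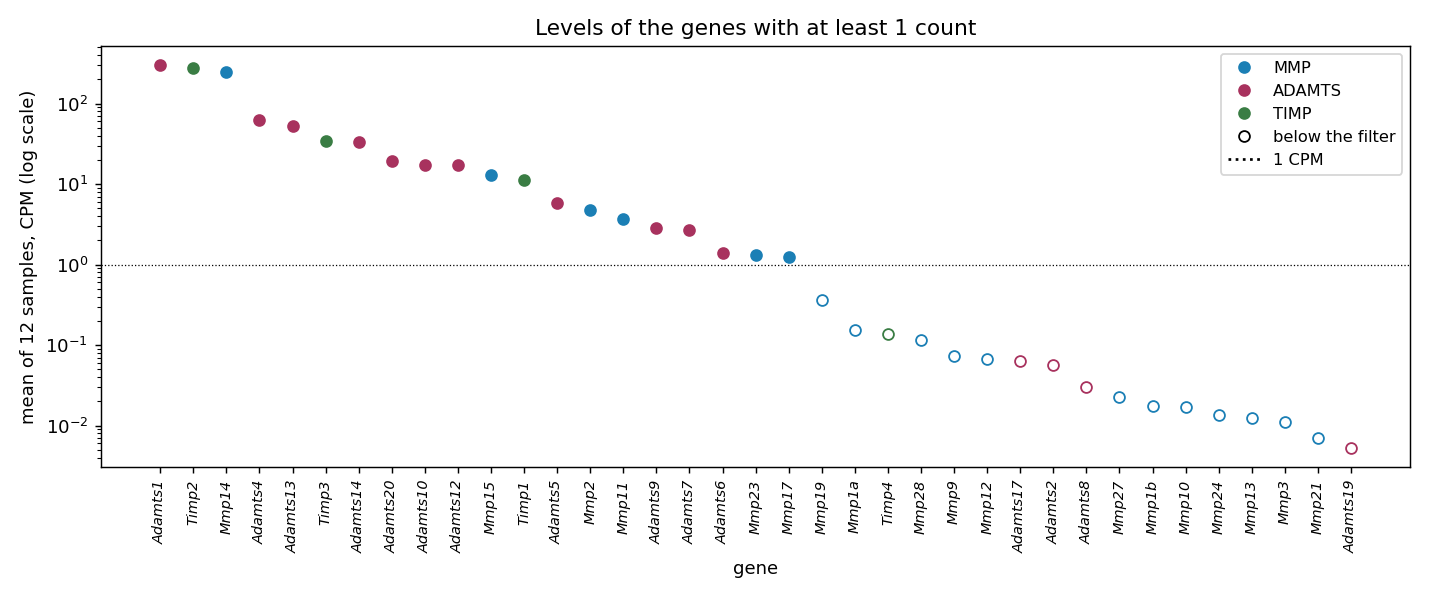
Mean level over the 12 samples (CPM, log scale) of each gene with at least 1 count, in falling order, with MMP, ADAMTS and TIMP genes in separate colours and open points for genes below the filter. Adamts1 (mean 301.4 CPM), Timp2 (281 CPM) and Mmp14 (247 CPM) stand above the other genes, and the collagenases and stromelysins of chromosome 9 lie far below 1 CPM.

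The MMP genes best known for cutting interstitial collagen and for responding to inflammation were nearly silent in every group. A run of 10 MMP genes lies within 427.1 kb on chromosome 9 (Mmp13, Mmp12, Mmp1b, Mmp3, Mmp1a, Mmp10, Mmp8, Mmp27, Mmp20 and Mmp7; chr9:7272514-7699585, mm10, GENCODE release M21). None of these 10 was tested, 3 of them had no count in any library, and together they had 83 counts in the 12 libraries. The collagenase Mmp13, the stromelysins Mmp3 and Mmp10 and the metalloelastase Mmp12 had at most 1, 1, 1 and 5 counts in a library. Of these 10 genes, Mmp1a had the highest count in 1 library, 23, and is taken up below.

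The gelatinase Mmp9 had 0, 1 and 2 counts in the control replicates 1, 2 and 3, 1, 1 and 5 after DAC, 2, 0 and 3 after SFN, and 0, 1 and 4 after DAC+SFN. Timp4 had 5, 0 and 1 counts in the control replicates, 3, 4 and 4 after DAC, 0, 5 and 4 after SFN, and 3, 6 and 1 after DAC+SFN. The counts of both genes overlapped between all groups. In a fit that kept all genes, the adjusted p against control was 0.865 or higher for Mmp9 and 0.766 or higher for Timp4. The other genes below the filter outside chromosome 9 were Mmp19 with 3 to 12 counts per library, Mmp28 with 0 to 9, Adamts2 with 0 to 6, Adamts17 with 0 to 3, Adamts8 and Mmp24 with 0 to 2, and Adamts19 and Mmp21 with 0 to 1. No count was found for Adamts3, Adamts15, Adamts16, Adamts18, Mmp7, Mmp8, Mmp16, Mmp20 or Mmp25, which at these depths allows up to 0.112 to 0.191 CPM per library (3 counts; counting error only). The files give Mmp8 the same Entrez identifier as Mmp3, 17392, so both were followed by symbol.

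The promoters of the chromosome 9 genes held few CpG dinucleotides and, in most cases, an AP-1 motif, the site of Fos and Jun dimers. RefSeq promoter windows (GRCm38.p6, 250 bases before to 50 after each annotated start) were matched by symbol for 32 of the 46 genes. In the 12 windows of the chromosome 9 genes there were 0 to 7 CpG dinucleotides, the site at which DNA methyltransferases act, while the 14 windows of 13 tested genes held 2 to 44. Untested members outside this run ranged as widely, from 2 in Mmp21 and Timp4 to 41 in Adamts2 and Adamts3 and 44 in Mmp24. Whether the CpG number is linked to the level of a gene was not tested. The median over all 32851 windows of the table was 7. The AP-1 motif TGANTCA, searched on both strands, was found in a window of 8 of the 10 chromosome 9 genes, with its leftmost base 35 to 95 bases before the start, in 0 of the 13 tested genes, and in 7.81% of all windows. These are descriptions of the letters in these windows, and no binding was measured. The windows of a collagenase of this cluster and of its relative that had counts in a few libraries are shown for this feature, 5′ to 3′ on the plus strand (Mmp13 at chr9:7272264-7272563, Mmp1a at chr9:7463891-7464190), with the AP-1 match in capitals:
Mmp13: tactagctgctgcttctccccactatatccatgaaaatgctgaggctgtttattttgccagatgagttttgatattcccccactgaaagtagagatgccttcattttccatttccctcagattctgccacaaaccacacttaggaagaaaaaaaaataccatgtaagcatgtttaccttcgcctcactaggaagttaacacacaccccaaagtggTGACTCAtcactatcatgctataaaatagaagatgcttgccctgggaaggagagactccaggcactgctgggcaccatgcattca
Mmp1a: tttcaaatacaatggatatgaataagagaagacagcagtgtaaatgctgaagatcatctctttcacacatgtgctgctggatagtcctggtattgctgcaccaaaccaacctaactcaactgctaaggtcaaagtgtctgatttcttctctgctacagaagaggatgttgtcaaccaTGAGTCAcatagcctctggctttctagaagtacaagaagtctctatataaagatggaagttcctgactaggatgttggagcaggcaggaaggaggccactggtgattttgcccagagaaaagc

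With SFN alone, 7 of the 20 tested genes passed the test. Adamts14, Mmp15, Mmp2, Adamts4, Adamts1 and Timp2 rose, with fold changes from 1.17 to 2.66, and Adamts13 fell. The share of all genes that passed was 8.27% upward and 5.65% downward. With DAC+SFN compared to control, 8 genes rose (Mmp15, Adamts14, Mmp2, Adamts4, Adamts1, Adamts5, Adamts12 and Timp2), with fold changes from 1.24 to 3.14, and 0 fell, where 17% of all genes rose and 14.7% fell. Adamts14 and Mmp15 were the members with a fold change above 2 as well, in both comparisons, which 1.08% of all genes reached upward with SFN and 2.33% with DAC+SFN. With DAC alone 0 of the 20 passed in edgeR (0.18% of all genes passed) and 0 in DESeq2, and Adamts1, Adamts14, Mmp15 and Timp2 had an unadjusted p under 0.05, which 10.1% of all genes had. The result with DAC depended on the model. Adamts14 and Mmp15 passed when no filter was used, and these 4 genes passed with only the DAC and control samples in the model. The median log2 fold change of the 20 genes was 0.12 with DAC, 0.13 with SFN and 0.28 with DAC+SFN, beside medians of 0.0049, 0.004 and 0.0078 over all genes tested. The 3 treatments share their control samples, so these medians are not independent of each other.

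These calls rest on the comparison of samples with the same replicate number. When the model had no replicate block, 0 of the 20 genes passed with SFN and 3 with DAC+SFN (Adamts12, Adamts4 and Mmp15). The share of all genes that passed in that model is not given here, so whether the loss is particular to these genes cannot be told. Each of the genes that passed with the block had the same direction in all 3 replicates. The test with the block favours such genes, so this is no separate evidence for the calls. Of all 20 tested genes, 11 had the same direction in all 3 replicates with SFN and 10 with DAC+SFN. With DAC, where 0 passed, 7 had.

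**Figure D2:**
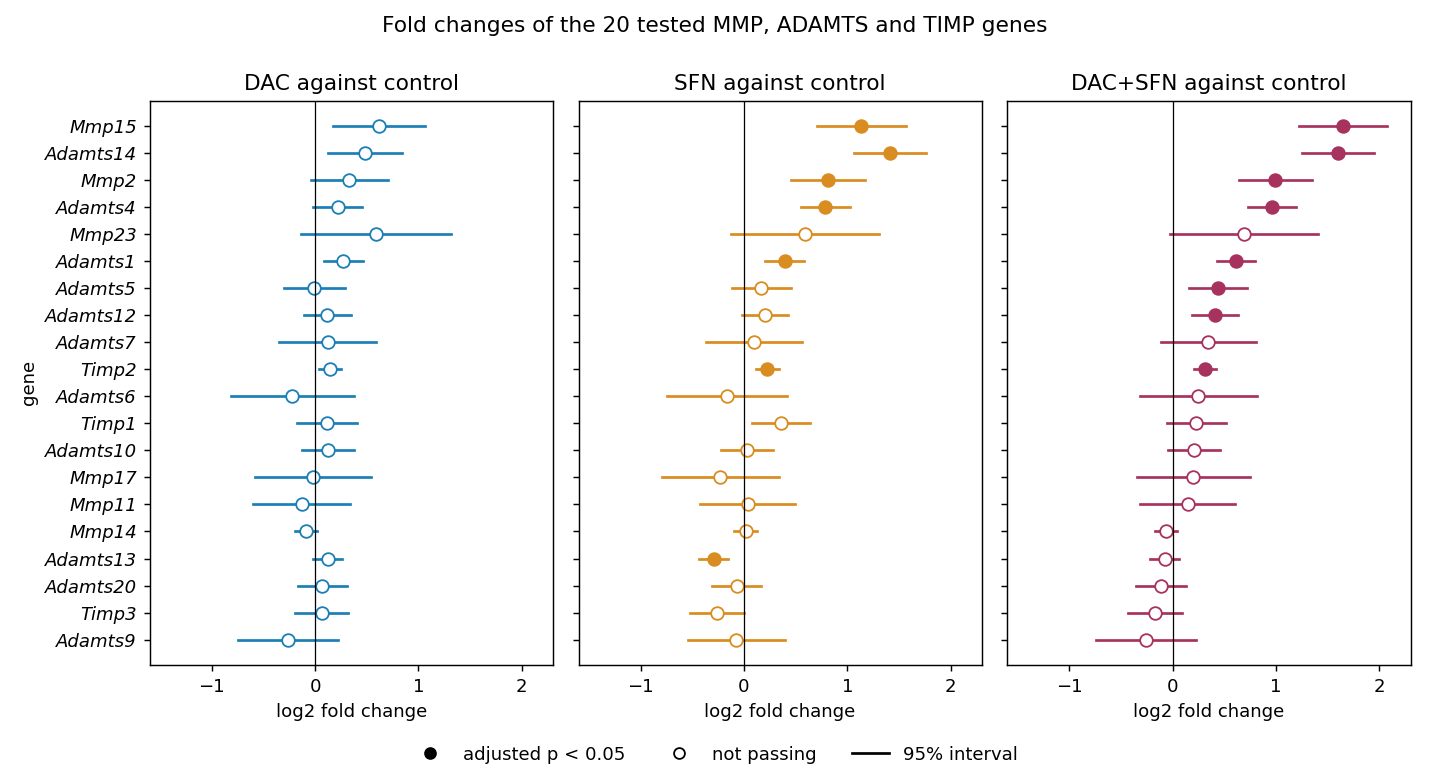
Log2 fold change of each tested gene against control (points) with its 95% interval (lines) for DAC, SFN and DAC+SFN, filled where the adjusted p was under 0.05 and ordered by the value with DAC+SFN. Mmp15 (1.65) and Adamts14 (1.60) lie farthest to the right with DAC+SFN, the interval of Mmp14 is narrow and spans 0 in each panel, and no point is filled with DAC.

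Adamts14 (Entrez 237360, chr10:61197112-61273438, minus strand) encodes a procollagen N-propeptidase, an enzyme that removes the amino-terminal propeptide of fibrillar procollagens. Its levels were 8.74, 24.05 and 16.2 CPM in the control replicates 1, 2 and 3, 10.8, 39.3 and 20.8 after DAC, 29.6, 70.4 and 31.3 after SFN, and 37.0, 75.2 and 34.1 after DAC+SFN. The SFN and DAC+SFN samples all lay above the control samples, and replicate 2 was the highest of its group in each case. The fold change was 2.66 with SFN (95% interval 2.09 to 3.39, log2 1.41, SE 0.16, adjusted p 6.91e-05) and 3.02 with DAC+SFN (2.37 to 3.85, log2 1.60, SE 0.16, adjusted p 1.034e-05). With DAC it was 1.40 (1.09 to 1.79, adjusted p 0.325), which did not pass in the filtered model of all 12 samples. Its relatives with the same activity, Adamts2 and Adamts3, had at most 6 counts and no count in a library.

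Mmp15 (Entrez 17388, chr8:95352268-95375080, plus strand) encodes a membrane-type MMP, anchored in the plasma membrane like Mmp14. Its levels were 4.92, 9.03 and 5.65 CPM in the control replicates, 6.83, 13.4 and 9.63 after DAC, 13.6, 18.7 and 10.8 after SFN, and 23.7, 25.5 and 12.1 after DAC+SFN. No SFN or DAC+SFN sample overlapped with the control samples, and replicate 3 was the lowest with SFN and DAC+SFN. Mmp15 rose 2.20-fold with SFN (1.63 to 2.96, log2 1.14, SE 0.20, adjusted p 0.00175) and 3.14-fold with DAC+SFN (2.34 to 4.21, log2 1.65, SE 0.20, adjusted p 3.945e-05). The value with DAC was 1.54 (1.13 to 2.09, adjusted p 0.293) and did not pass in the filtered model of all 12 samples.

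The promoter windows of Adamts14, Mmp15 and Timp2 are shown because they were the genes that rose with SFN or DAC+SFN whose window held a motif searched: the core ETS motif CCGGAA in Adamts14 (chr10:61273370-61273669, minus strand) and the antioxidant response element TGACNNNGC, the motif to which NRF2 binds with small MAF proteins, in Mmp15 (chr8:95352046-95352345, plus strand) and Timp2 (chr11:118355362-118355661, minus strand). Each is printed 5′ to 3′ on its gene's strand with the match in capitals, which in Mmp15 and Timp2 is on the opposite strand:
Adamts14: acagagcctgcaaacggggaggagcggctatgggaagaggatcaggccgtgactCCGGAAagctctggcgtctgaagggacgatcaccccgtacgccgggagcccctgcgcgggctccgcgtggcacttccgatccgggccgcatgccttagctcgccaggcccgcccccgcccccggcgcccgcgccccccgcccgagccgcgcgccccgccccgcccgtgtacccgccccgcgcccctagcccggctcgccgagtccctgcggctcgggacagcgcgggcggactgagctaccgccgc
Mmp15: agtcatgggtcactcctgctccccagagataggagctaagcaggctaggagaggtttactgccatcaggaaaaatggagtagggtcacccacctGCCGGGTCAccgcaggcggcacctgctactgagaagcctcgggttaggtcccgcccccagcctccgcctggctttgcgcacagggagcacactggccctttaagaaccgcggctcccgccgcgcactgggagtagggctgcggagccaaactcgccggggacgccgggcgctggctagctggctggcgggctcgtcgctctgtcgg
Timp2: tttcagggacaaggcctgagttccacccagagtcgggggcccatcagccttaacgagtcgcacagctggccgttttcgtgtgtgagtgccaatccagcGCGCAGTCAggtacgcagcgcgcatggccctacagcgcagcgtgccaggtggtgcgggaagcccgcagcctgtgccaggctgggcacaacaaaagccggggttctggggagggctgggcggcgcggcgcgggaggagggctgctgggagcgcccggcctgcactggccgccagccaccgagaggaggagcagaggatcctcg

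The antioxidant response element was found on either strand in 12.4% of all windows and the ETS core in 14.9%, so matches of this kind are common. The antioxidant response element was also in the windows of Adamts2, Mmp21, Mmp24 and Timp4. These genes were below the filter and did not pass against control in the fit that kept all genes. Whether the motif is linked to a rise was not tested. The windows of Adamts1, Adamts12, Adamts13 and Mmp14 held none of the 3 motifs. Adamts14 had 44 CpG in its window, where 97.8% of all windows had fewer, Timp2 had 25, Mmp15 had 22 and Mmp14 had 10. The table had no window for Adamts4, Adamts5, Mmp2 or Mmp9.

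Adamts4 and Adamts1 encode aggrecanases, which cut the core proteins of aggrecan, versican and brevican. The levels of Adamts4 (Entrez 240913, chr1:171250421-171260637) were 39.3, 33.9 and 57.8 CPM in the control replicates, 41.6, 45.5 and 64.8 after DAC, 65.6, 77.9 and 77.7 after SFN, and 81.5, 76.2 and 93.2 after DAC+SFN. All SFN and DAC+SFN samples were above all control samples. The rise was 1.72-fold with SFN (1.46 to 2.03, adjusted p 3.349e-04) and 1.95-fold with DAC+SFN (1.65 to 2.29, adjusted p 2.778e-05). Some of its exon bases overlap with a gene on the opposite strand, and whether strand was used in counting is not given in the sources used here, so part of its counts is uncertain.

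Adamts1 (Entrez 11504, chr16:85793827-85803113) was at 198, 238 and 272 CPM in the control replicates, 229.8, 337 and 298 after DAC, 231, 410 and 309 after SFN, and 289, 438 and 367 after DAC+SFN. The DAC+SFN samples were all above the control samples, while the SFN samples overlapped with them, with replicate 1 the lowest of both groups. Adamts1 rose 1.31-fold with SFN (1.16 to 1.496, adjusted p 0.00774) and 1.53-fold with DAC+SFN (1.34 to 1.74, adjusted p 1.463e-04). Without replicate 2 of SFN the adjusted p with SFN was 0.0641.

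Adamts5, the aggrecanase that lies 53.1 kb from Adamts1 on the same strand of chromosome 16, was far less expressed, with 0.485 CPM per kilobase in control beside 44.5 for Adamts1. Its levels were 4.05, 5.03 and 6.63 CPM in the control replicates, 4.68, 4.98 and 5.84 after DAC, 4.94, 5.49 and 7.16 after SFN, and 5.64, 6.61 and 9.06 after DAC+SFN. The groups overlapped. Adamts5 rose 1.36-fold with DAC+SFN (1.12 to 1.65, adjusted p 0.0201), and the adjusted p lay between 0.0503 and 0.0952 when replicate 1 or 2 of control or replicate 2 or 3 of DAC+SFN was left out.

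Adamts12 encodes a protease that cuts cartilage oligomeric matrix protein. Its levels were 14.2, 16.9 and 14.8 CPM in the control replicates, 18.3, 15.8 and 15.5 after DAC, 16.7, 20.6 and 15.7 after SFN, and 20.7, 20.3 and 19.8 after DAC+SFN. The 3 DAC+SFN samples lay close together and above the control samples. Adamts12 rose 1.33-fold with DAC+SFN (1.14 to 1.55, adjusted p 0.00868), with an adjusted p of 0.0685 without replicate 1 of control.

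Adamts13, which cuts von Willebrand factor and is known from the liver and the circulation, was the member that fell. Its levels were 55.1, 47.2 and 60.04 CPM in the control replicates, 63.1, 49.4 and 64.4 after DAC, 42.0, 41.1 and 48.9 after SFN, and 52.7, 46.4 and 54.2 after DAC+SFN. The SFN group was the lowest in each replicate, and its highest sample overlapped with the lowest control sample. With SFN it fell to 0.816 of control (0.739 to 0.90, adjusted p 0.00871), with an adjusted p of 0.0665 without replicate 1 of SFN. With DAC+SFN the ratio to control was 0.946 (0.858 to 1.04, adjusted p 0.386).

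**Figure D3:**
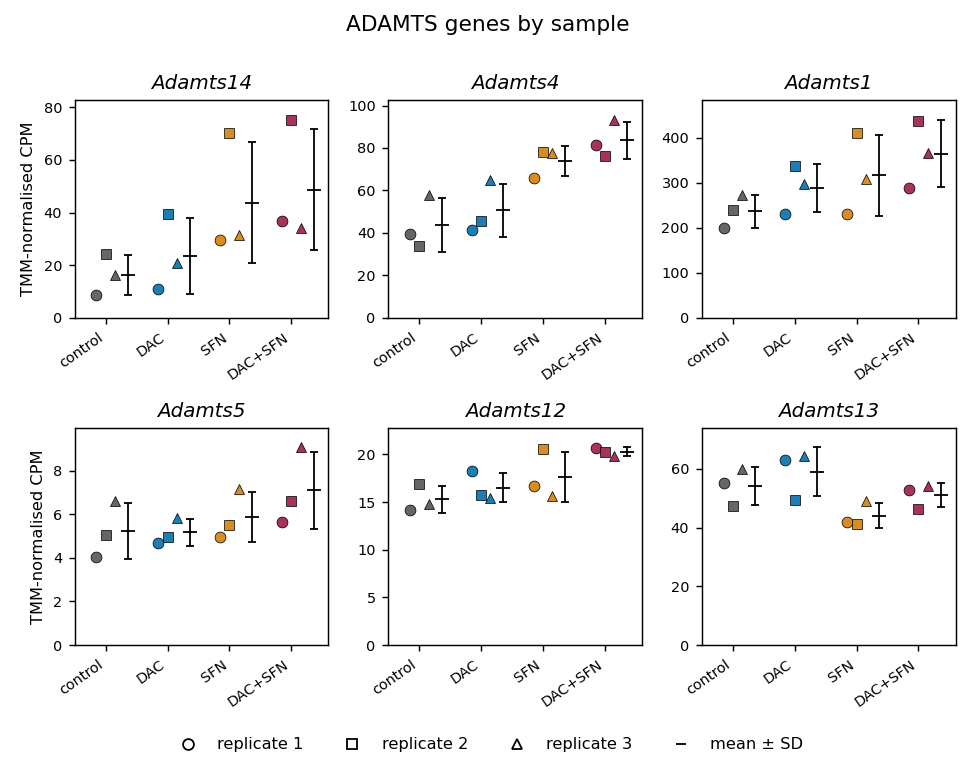
TMM-normalised CPM of 6 ADAMTS genes in the 12 samples, by group, with a symbol for each replicate number and the mean ± SD of each group (n = 3). Adamts14 in replicate 2 is the highest point of each group (75.2 CPM with DAC+SFN), and Adamts13 is lowest with SFN.

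Mmp2 is a gelatinase, which cuts denatured collagen and type IV collagen. Its levels were low, with 43 to 198 counts per library: 3.54, 3.79 and 2.21 CPM in the control replicates, 3.31, 5.55 and 3.30 after DAC, 4.56, 7.45 and 4.82 after SFN, and 5.64, 8.52 and 5.00 after DAC+SFN. The SFN and DAC+SFN samples were all above the control samples. Mmp2 rose 1.76-fold with SFN (1.37 to 2.25, adjusted p 0.00476) and 1.99-fold with DAC+SFN (1.56 to 2.54, adjusted p 4.937e-04).

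Mmp14, which activates the proenzyme of Mmp2, did not pass in any comparison of treatments. It was at 241, 247 and 270.2 CPM in the control replicates, 228, 226 and 260.5 after DAC, 247, 251 and 267 after SFN, and 242, 226 and 256 after DAC+SFN. All groups overlapped. The ratio to control was 1.01 with SFN (0.938 to 1.09, adjusted p 0.881) and 0.956 with DAC+SFN (0.887 to 1.03, adjusted p 0.355), so the intervals leave out a rise above 1.09-fold and a fall below 0.887 of control. Whether the changes of Mmp2 and Mmp14 differ was not tested.

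Among the inhibitors, Timp2 was the one that passed. Its levels were 215, 275 and 255 CPM in the control replicates, 233, 319 and 274 after DAC, 239, 343 and 294 after SFN, and 264, 347 and 313 after DAC+SFN. The groups overlapped, but within each replicate number the order was control, DAC, SFN, DAC+SFN. Timp2 rose 1.17-fold with SFN (1.09 to 1.26, adjusted p 0.0084) and 1.24-fold with DAC+SFN (1.15 to 1.34, adjusted p 4.353e-04). Leaving out replicate 2 of control or of SFN gave an adjusted p of 0.067 or 0.0841 with SFN.

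Timp1 was at 9.43, 9.12 and 11.3 CPM in the control replicates, 10.6, 9.06 and 12.5 after DAC, 9.79, 14.3 and 14.4 after SFN, and 9.33, 12.2 and 13.7 after DAC+SFN. Timp3, the inhibitor that stays bound to the matrix, was at 38.1, 33.1 and 38.7 CPM in the control replicates, 41.2, 36.2 and 37.1 after DAC, 27.3, 29.6 and 34.9 after SFN, and 24.5, 33.9 and 39.7 after DAC+SFN. Timp1 overlapped between all groups, and Timp3 overlapped between control and each treatment. All DAC samples of Timp3 lay above all its SFN samples, and DAC and SFN were not compared in a test. Neither gene passed in any comparison of treatments in the model of all 12 samples. The ratio to control with SFN was 1.28 for Timp1 (1.06 to 1.56, adjusted p 0.0843) and 0.833 for Timp3 (0.694 to 0.998, adjusted p 0.17). With only the control and SFN samples in the model, Timp3 passed with SFN (adjusted p 0.0389). Exons of Timp3 overlap with those of Syn3 on the opposite strand.

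**Figure D4:**
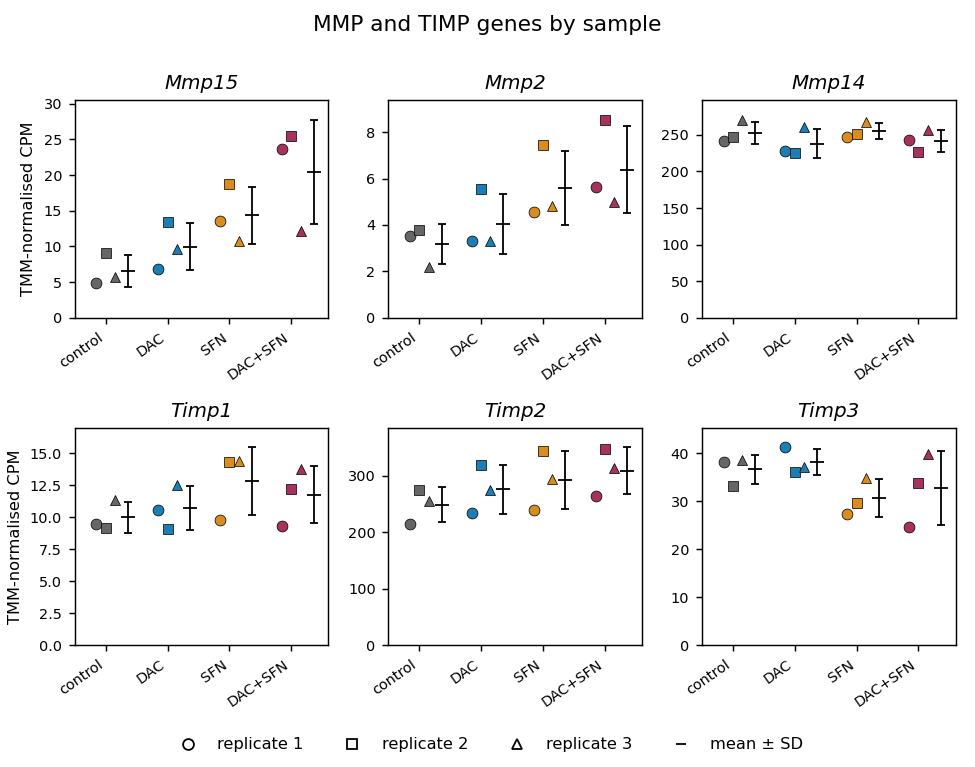
TMM-normalised CPM of 3 MMP and 3 TIMP genes in the 12 samples, by group, with a symbol for each replicate number and the mean ± SD of each group (n = 3). Mmp15 and Mmp2 lie higher with SFN and DAC+SFN than in control, while Mmp14 stays between 225.8 and 270.2 CPM in all 12 samples.

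The remaining tested genes did not pass in any comparison of treatments. Adamts20, a versican-cleaving protease studied in melanoblast development, had a mean of 19.3 CPM over the 12 samples and log2 fold changes against control of 0.07 with DAC, -0.07 with SFN and -0.11 with DAC+SFN. Adamts10, which takes part in fibrillin assembly, had a mean of 17.5 CPM and values of 0.13, 0.03 and 0.21 in the same order. The stromelysin Mmp11 (mean 3.66 CPM) had -0.13, 0.04 and 0.14. Their intervals span 0.

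The other 5 were near the filter, where errors are wide. Adamts9, a versican-cleaving enzyme, had a mean of 2.88 CPM and log2 fold changes of -0.26 with DAC, -0.07 with SFN and -0.26 with DAC+SFN. Adamts7, which like Adamts12 cuts cartilage oligomeric matrix protein, had a mean of 2.70 CPM and values of 0.12, 0.09 and 0.34. Adamts6 (mean 1.40 CPM) had -0.22, -0.17 and 0.25. Mmp23 and the membrane-anchored Mmp17 were the lowest of the tested genes. Mmp23 (mean 1.33 CPM) had 0.59, 0.59 and 0.69, with an interval of -0.03 to 1.41 in the last, and Mmp17 (mean 1.26 CPM) had -0.02, -0.23 and 0.20.

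When SFN was added to DAC, 8 of the 20 genes passed compared to DAC alone. Adamts14 (2.16-fold, adjusted p 4.465e-04), Mmp15 (2.04-fold, adjusted p 0.00261), Adamts4 (1.67-fold, adjusted p 5.735e-04), Mmp2 (1.58-fold, adjusted p 0.0129), Adamts5 (1.36-fold, adjusted p 0.0334), Adamts1 (1.26-fold, adjusted p 0.0172) and Timp2 (1.12-fold, adjusted p 0.0409) rose, where 9.55% of all genes rose. Adamts13 fell to 0.869 of the DAC level (adjusted p 0.0492), where 6.6% of all genes fell. Adamts14 and Mmp15 also had a fold change above 2, as 0.73% of all genes did upward. With any 1 library of these groups left out, 3 to 5 of the genes passed, and Adamts14, Adamts4 and Mmp15 did so in each of the 6 fits. Without the replicate block 0 passed.

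When DAC was added to SFN, 0 of the 20 genes passed compared to SFN alone in edgeR (1.61% of all genes did), and 0 in DESeq2. An unadjusted p under 0.05 was reached by Adamts13, Mmp15 and Adamts1, and by 17.8% of all genes. Mmp15 was 1.43-fold as high with DAC+SFN as with SFN (1.09 to 1.87, adjusted p 0.154), higher in 3 of 3 replicates, and Adamts13 was 1.16-fold as high (1.05 to 1.28, adjusted p 0.106), also in 3 of 3 replicates. Mmp15 passed when replicate 3 of DAC+SFN was left out and when no filter was used. With only the SFN and DAC+SFN samples in the model, Adamts1, Adamts13 and Mmp15 passed. The labels leave it uncertain whether these groups had the same SFN dose.

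No departure of the combination treatment from the sum of the single treatments on the log2 scale was detected for these genes. The interaction of DAC and SFN passed for 0 of the 20 genes in edgeR and in DESeq2, with 0 at an unadjusted p under 0.05, while 0% of all genes passed and 5.87% had an unadjusted p under 0.05. For Adamts14 the interaction was -0.30 on the log2 scale (-0.78 to 0.18) and for Mmp15 it was -0.11 (-0.70 to 0.48), so departures of this size in either direction could not be detected with 3 replicates. For the more abundant Mmp14 the interval was narrower, from -0.15 to 0.16.

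The levels of these genes also differed between the replicate numbers, whatever the treatment. The replicate number passed for 14 of the 20 genes, where 33.9% of all genes passed. Adamts14 averaged 21.5, 52.2 and 25.6 CPM over the 4 groups in replicates 1, 2 and 3, a 2.42-fold range that is close to its change with SFN. Replicate 2 was the highest for 5 of the 14 (Adamts14, Mmp2, Mmp15, Adamts1 and Timp2), all of which also rose with SFN, and replicate 3 for the other 9. Adamts6, Adamts9 and Mmp11 were highest in replicate 3, with ranges of 1.93-, 1.82- and 1.65-fold. In the labels, the library numbers run from 1 to 4 in replicate 1, from 5 to 8 in replicate 2 and from 11 to 14 in replicate 3, so a batch that follows the library number and the replicate cannot be told apart.

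**Figure D5:**
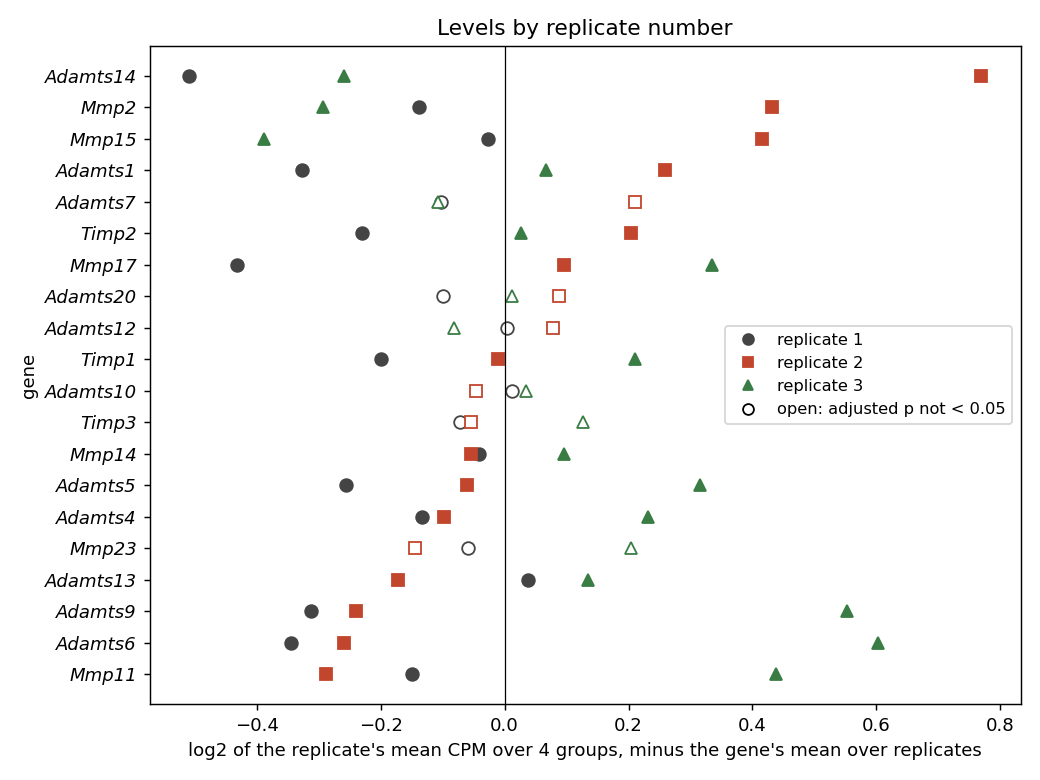
For each tested gene, the mean CPM over the 4 groups in each replicate number, as log2 relative to the gene's own mean over the 3 replicates, with open symbols where the replicate number did not pass. Replicate 2 lies to the right for Adamts14 (52.2 CPM) and replicate 3 for Adamts6 and Adamts9.

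Mmp1a, the interstitial collagenase gene of the chromosome 9 run, had more than 1 count only in libraries of replicate 2, and it was picked out after its values were seen. It had 0, 0 and 0 counts in the control replicates, 1, 1 and 0 after DAC, 1, 23 and 1 after SFN, and 1, 16 and 0 after DAC+SFN. Replicate 2 of SFN and of DAC+SFN held nearly all of its 44 counts, and the other 10 libraries held 0 or 1. It did not reach the filter. When all genes were kept it passed with SFN (adjusted p 0.0169) and with DAC+SFN (adjusted p 0.0171), and both calls rest on 1 library per group.

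Genes that work with these proteases were followed as lists. In a list of 20 activators, inhibitors and receptors, 10 were tested, and 0 passed with DAC, 4 rose with SFN (8.27% of all genes did) and 5 rose with DAC+SFN (17% of all genes did), with 0 falling. The median log2 fold change of the 10 with DAC+SFN was 0.45, beside 0.0078 over all genes tested. Plaur, the urokinase receptor, went from 15.7 ± 3.35 CPM in control to 28.6 ± 12.8 with DAC+SFN (SD, n = 3; log2 fold change 0.81, SE 0.12, adjusted p 1.709e-04). Furin, the convertase that activates membrane-type MMPs inside the cell, rose by 0.55 on the log2 scale (adjusted p 0.00133). Plat, the tissue plasminogen activator, rose by 0.54 (adjusted p 0.00493). Lrp1, the endocytic receptor that clears proteases, rose by 0.43 (adjusted p 2.697e-04).

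Not all of that list moved. Plau, the urokinase gene, had a log2 fold change of 0.47 with DAC+SFN (adjusted p 0.152). Reck, a membrane-anchored MMP inhibitor, had 0.15 (adjusted p 0.285) and Bsg, which encodes the MMP inducer basigin, had 0.18 (adjusted p 0.159). Plg, the plasminogen gene, had at most 1 count in a library.

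Of 13 ADAM proteases, the membrane-bound relatives of ADAMTS, 10 were tested, and 4 rose and 1 fell with DAC+SFN, with a median of 0.12, where 17% of all genes rose and 14.7% fell. Of 7 ADAMTS-like genes, which lack the protease domain, 4 were tested and 2 rose, with a median of 0.36. Of 18 matrix substrates, 7 were tested and 3 rose, with a median of 0.36. Both counts are to be read against the same 17%. Bcan, which encodes the aggrecanase substrate brevican, went from 4.71 ± 0.504 CPM in control to 22.0 ± 4.32 with SFN and 19.1 ± 6.84 with DAC+SFN (log2 fold changes 2.22 and 2.00, adjusted p 1.161e-06 and 1.48e-06). Sparc, a collagen-binding glycoprotein, rose by 1.03 on the log2 scale with DAC+SFN (adjusted p 2.953e-06), from 1292 ± 329.7 CPM.

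Of 13 AP-1 and ETS transcription factors, families known to act on MMP promoters, 11 were tested, and 6 rose and 1 fell with DAC+SFN, with a median of 0.71, beside 17% and 14.7% of all genes. The AP-1 genes Fosl2 (log2 fold change 0.99, adjusted p 0.00134), Fos (0.77, adjusted p 0.0305) and Jun (0.71, adjusted p 0.00638) were among those that rose. The gene that fell was the ETS factor Ets1 (log2 fold change -0.39, adjusted p 4.478e-04). The rises above 2-fold were in the ETS factors of the PEA3 group. Etv4 went from 2.44 ± 1.22 CPM in control to 10.2 ± 4.04 with DAC+SFN (log2 fold change 2.103, SE 0.30, adjusted p 1.287e-04). Etv5 had 0.83 with DAC (adjusted p 0.0344), 1.44 with SFN and 1.73 with DAC+SFN (adjusted p 1.507e-06), and Etv1 had 1.05 with DAC+SFN (adjusted p 4.041e-05). Whether these factors act on the protease genes was not tested.

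Markers of other cell types were checked beside these results. The summed level of 5 leukocyte markers was 2.36 to 4.78 CPM in control, 3.93 to 5.87 with DAC, 6.16 to 9.03 with SFN and 8.27 to 11.3 with DAC+SFN, and thus moved with the treatments. Nearly all of it was the lysosomal gene Cd68 (log2 fold change 1.55 with DAC+SFN, adjusted p 1.979e-05), while the defining markers were at 0 in all 12 libraries (Adgre1) or had at most 2 (Ptprc) or 3 (Csf1r and Itgam) counts. The 4 endothelial markers summed to at most 0.766 CPM and the 4 keratinocyte markers to at most 0.091. The 7 fibroblast markers, mostly Col1a1, summed to 77.7 to 106 CPM in replicate 1, 31.9 to 43.96 in replicate 2 and 266 to 386 in replicate 3, with at most 1 count of Dcn and 3 of Lum in a library. This sum was highest in replicate 3, as Adamts6, Adamts9 and Mmp11 were, and its part in their levels was not tested. Of the 4 fibroblast markers tested, Pdgfra, which encodes a growth factor receptor, fell by 0.84 on the log2 scale with SFN (adjusted p 0.024) and by 0.73 with DAC+SFN (adjusted p 0.0249). Col1a2 had a log2 fold change of -0.71 for DAC+SFN against DAC (adjusted p 0.0493) and of -0.77 with SFN against control (adjusted p 0.0525). The part of Pdgfra and Col1a2 in the changes of the protease genes with these treatments was not tested.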

How the data were processed

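RNA sequencing of B16F10 cells, 12 libraries from 4 groups of 3 biological repeats, was analysed. The authors deposited raw read counts per gene. Per the study's methods and the submitters' processing notes, reads were checked with FastQC 0.11.7, trimmed with Trimmomatic 0.38 and aligned to mm10 with TopHat 2.1.1, and uniquely aligned reads were counted with htseq. The counting annotation and strand setting are not given in the sources used here. Reads that matched several places were dropped, which can lower the counts of closely related genes such as Mmp1a and Mmp1b.

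Counts of genes that reached 1 CPM in 3 or more libraries were scaled by TMM and tested with edgeR 4.0.16 in R 4.3.3 (glmQLFTest, two-sided, Benjamini-Hochberg over 11638 genes). All 12 samples were in 1 model that included a replicate block, since the study's methods correct for a batch they do not name. SE was taken as log2 fold change over root F, and intervals are 95%. DESeq2 1.42.0 was an alternative. The code was tested on simulated data. Correlations of same-numbered samples' deviations from their group means were 0.27 to 0.73 in all 18 pairs. In the 36 pairs with different numbers they were -0.597 to 0.282, so the ranges overlapped. DAC replicate 1 had 0.276 with DAC+SFN replicate 1 and 0.282 with DAC+SFN replicate 3. The numbers were taken to pair the samples, although the ranges do not separate fully.

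The members, gene lists and motifs were chosen with earlier results of these data known. Per-sample values are given for members that passed in any comparison of treatments and for Timp1 to Timp4, Mmp2, Mmp9 and Mmp14. Other tested members are named with their mean and fold changes, and members below the filter with their counts. Listed genes that are no members are named if changed above 2-fold with DAC+SFN, plus Plat, Plau, Plaur, Reck, Furin and Bsg, and 1 gene under this rule is not reported here. A CPM minimum, the block and the scaling can each change a call, and the alternatives tried were DESeq2 scaling and testing, no filter, no block, only the groups compared and each library left out. Further list genes and markers named were chosen after their values were seen. Positions and exon lengths came from GENCODE M21 and promoters from RefSeq.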

Additional observations from a re-analysis of the deposited data

How the results depend on the processing

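Another scaling (DESeq2 size factors) left every count of genes that passed as it was, and the DESeq2 Wald test gave 6 in place of 8 for DAC+SFN against DAC, without Adamts5 and Adamts13, 13 in place of 14 for the replicate number, and the same counts elsewhere. Without the replicate block, 0 in place of 7 genes passed with SFN, 3 in place of 8 with DAC+SFN and 0 in place of 8 for DAC+SFN against DAC. The spread between replicate numbers is then part of the error. With no filter, 2 genes passed with DAC (Adamts14 and Mmp15) and 1 for DAC+SFN against SFN (Mmp15), Mmp1a was added with SFN (8 in place of 7) and with DAC+SFN (9 in place of 8), and Timp2 was lost for DAC+SFN against DAC (7 in place of 8). With only the groups compared in the model, 4 passed with DAC (Adamts1, Adamts14, Mmp15 and Timp2), 8 with SFN (Timp3 added), 7 with DAC+SFN (Adamts5 lost), 5 for DAC+SFN against DAC and 3 for DAC+SFN against SFN (Adamts1, Adamts13 and Mmp15). The cause of these differences was not tested.

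Leaving out 1 library at a time, 0 to 0 genes passed with DAC, 5 to 7 with SFN, 6 to 8 with DAC+SFN, 3 to 5 for DAC+SFN against DAC and 0 to 1 for DAC+SFN against SFN, 0 to 0 for the interaction and 10 to 14 for the replicate number. Log2 fold changes of single genes were followed under the alternatives only against control and only for the tested genes with per-sample values. Adamts6, Adamts7, Adamts9, Adamts10, Adamts20, Mmp11, Mmp17 and Mmp23 were not followed in this way. Among the values followed, those that changed sign had not passed: Mmp14 with SFN (-0.0126 to 0.0343 over these fits), Adamts5 with DAC (-0.0856 to 0.0884), Timp1 with DAC (-0.0067 to 0.23) and Timp3 with DAC (-0.0831 to 0.18) and with DAC+SFN (-0.30 to 0.0104). Of these values of single genes against control under the alternatives, 359 kept their direction and side of the threshold, 22 lost the call, 7 gained one and 8 changed sign. Values that had not passed and stayed so are among the 359. The comparisons of DAC+SFN with DAC and with SFN are not in this tally. At 16 to 27 counts per CPM, the 9 genes without a count could not be compared, and the 17 below the filter were tested only in the fit with no filter.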
